A study of Moricandia suffruticosa and Brassica napus with 23 samples.

Results

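Heat-treated leaves of Brassica napus (oilseed rape) were compared with control leaves across all genes that passed a minimum level. Members were the genes with at least 1 FPKM (fragments for each kilobase of coding sequence, relative to all assigned fragments) in at least 3 of the 6 libraries, 42771 of the 101040 genes in the table. Of the rest, 34052 were at 0 in all 6 libraries. Control and heat plants alike had grown for 35 days in soil at 25 °C and 60% humidity under 16 h of light. The heat group then spent 3 h at 40 °C, and the control group did not. Each group had 3 libraries of polyadenylated leaf RNA, and every mean ± SD below is over those (n = 3). All 3 groups used here carry the code 29005 in their titles, the only sign of their line. The labels give no time of day of harvest and no word on whether each library was its own plant. The p-values therefore measure only how far libraries of 1 group differ, a spread that may be technical. Of the 23 samples of the series, the 3 drought libraries of the same species served only in the estimate of the spread and in 1 comparison along the chromosomes, and the 14 samples of Moricandia suffruticosa were not analysed here.

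Oilseed rape is a hybrid of turnip and cabbage ancestors and still carries an A and a C subgenome, so that most Arabidopsis genes have several copies in it. Copies were taken here as gene models with the same best Arabidopsis locus in the table, and gene symbols are those of that locus. Heat is known to unfold proteins, to make membranes more fluid and to raise the oxygenation of Rubisco relative to its carboxylation, and plants answer with heat-shock proteins and with changes in RNA metabolism, growth and carbon use. Plastids and mitochondria depend on nuclear genes for much of the handling of their own RNA, including editing, cleavage and decay. How reads were shared out between near-identical copies is not given in the sources used here, so values of copies that are close in sequence are uncertain.

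Read totals were worked out from the values, with the smallest common step of FPKM times coding length in each library taken as 1 read. On that footing, reads assigned to genes ranged from 12543287 to 12934922 over the 6 libraries. A single read on 1 kb of coding sequence was then worth 0.0773 to 0.0797 FPKM. Correlations of log2(FPKM + 1) across genes were 0.986 within the control group, 0.984 to 0.985 within the heat group and 0.808 to 0.811 between the groups. A gene was called higher or lower in heat where its adjusted p in limma was below 0.05 and its mean moved by 1 or more on the log2 scale. All log2 changes are on the log2(FPKM + 1) scale, where those of low genes come out too small. In bulk tissue, fewer cells of a type and less RNA per cell cannot be told apart.

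The labels were checked first. Of 17 tested copies of 5 genes that mark a heat response, 13 were higher, 0 were lower and the median log2 change was 3.84 (3.65 with TMM scaling). Summed over its 4 copies, HSP22, a small heat-shock protein, went from 15.0 ± 0.694 FPKM to 8294 ± 53.2 FPKM. The 4 copies of the disaggregase HSP101 were not called, with log2 changes of 0.38 to 0.69. Leaf mesophyll markers (Rubisco small subunits, Rubisco activase and CAB1) had a summed level of 76869 to 77922 FPKM in the control and 49443 to 51548 FPKM in the heat libraries, with 2 of 26 tested copies higher and 10 lower. Root markers summed to 2.41 to 2.94 FPKM in control and 0.256 to 0.488 FPKM in heat, with 19 of 25 models at 0 in all 6 libraries. Floral markers summed to 1.48 to 2.13 and 2.51 to 2.98 FPKM, with no copy tested. Seed markers summed to 1.60 to 3.05 FPKM in control and 21.6 to 24.8 FPKM in heat. Both tested copies of OLEO1, an oil-body protein, rose, and 10 of the 13 seed models were at 0 in all 6 libraries. Guard cell markers summed to 52.7 to 55.3 and 46.8 to 50.6 FPKM, with 1 of 9 tested copies lower, and phloem markers to 247.7 to 261 and 302 to 303 FPKM, with 1 of 11 higher and 3, the copies of the sieve element protein SEOR1, lower. The part of these differences in the results below was not tested.

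Changes were not spread evenly along the chromosomes, a pattern looked for after the values had been seen. Tested genes were taken in the order of the numbers in their identifiers and divided into 768 windows of about 50 genes. The windows held 38326 of the 42771 tested genes. The rest have identifiers without a chromosome number, as in BnaCnng13310D, so their position is unknown. Counts below of genes outside stretches include them. Window medians of the log2 change ran from -1.46 to 1.01, around a median of 0.17 over all tested genes. A single stretch of 14 windows on chromosome A03, from BnaA03g07500D to BnaA03g22180D, had a median of -1.01 over 704 genes, with 357 genes lower and 20 higher. Against the control mean, the median of this stretch was -1.02 in heat library 1, -1.03 in heat library 2 and -1.03 in heat library 3, so the 3 heat libraries shared it. The drought libraries had a median of -0.25 there. The window just before the stretch had a median of 0.20 and the first window inside it -1.26.

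Copies on chromosome C03 of the same loci ran the other way. For 574 loci with a tested copy in the A03 stretch and another on C03, 306 of 595 A03 copies were lower and 13 higher, while 216 of 626 C03 copies were higher and 45 lower. Of all tested genes, 14.8% were higher and 11.5% lower. The A03 copy lay below the C03 copy in 557 of the 574 loci, by a median of 1.69 on the log2 scale. The A03 stretch was picked for its low log2 changes, which favours falls among its copies and a place below C03. The C03 copies were not picked by their own changes. Summed over the A03 copies, the level in heat was 7591 ± 201 FPKM against 19967 ± 167 FPKM, or 0.380 times the control. The C03 copies stood at 23561 ± 190 and 31468 ± 203 FPKM, 1.34 times the control, and both together at 43528 ± 351 and 39059 ± 401 FPKM, 0.897 times the control.

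**Figure D1:**
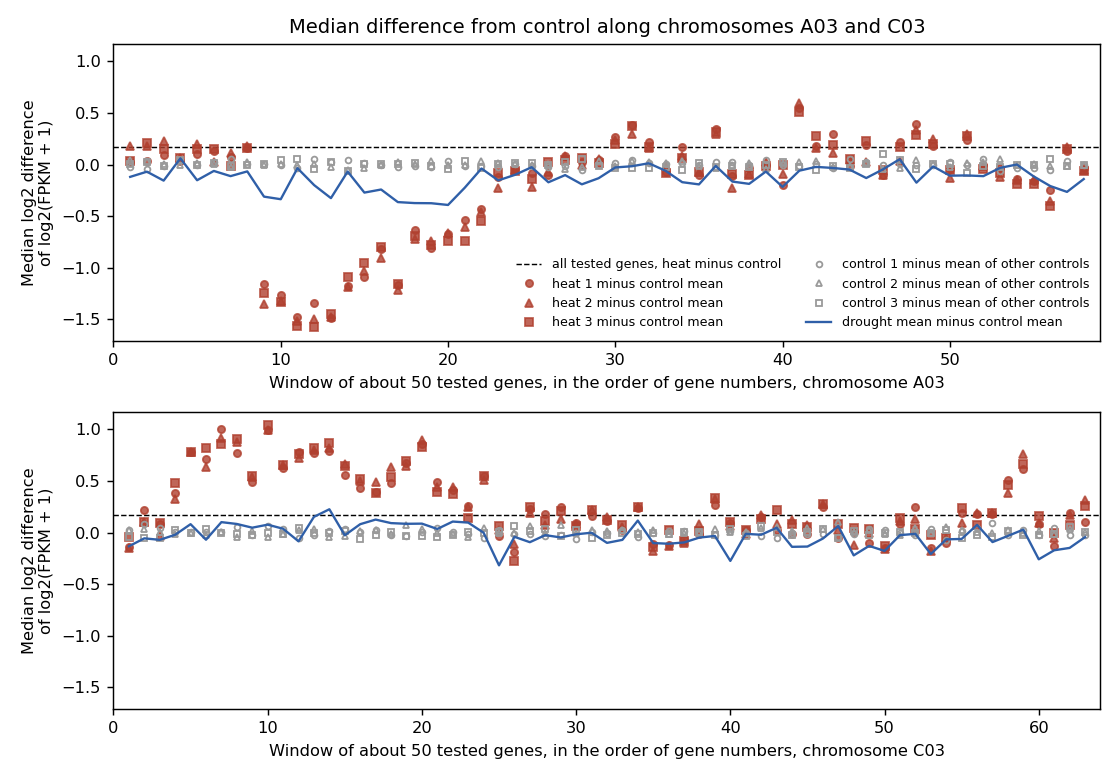
Median difference from control (y axis, log2 scale) in windows of about 50 tested genes along chromosomes A03 and C03 (x axis, window number), with each heat library against the control mean, each control library against the mean of the other controls, and the drought mean as a line. The 3 heat libraries fall together over the A03 stretch, whose 704 genes had a median of -1.01, and lie above the median of all genes over much of the first windows of C03.

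Shorter stretches lay elsewhere. Windows with a median at least 0.5 away from that of all genes, at or under -0.33 or at or above 0.67, numbered 35 low and 33 high and held 3403 tested genes, 7.96% of all. The A03 stretch was 14 of the low ones. Others were A04 from BnaA04g00030D to BnaA04g05750D (255 genes, median -0.53), C02 from BnaC02g04130D to BnaC02g09450D (148 genes, -0.49), A09 from BnaA09g45910D to BnaA09g50100D (200 genes, 0.81), C01 from BnaC01g00040D to BnaC01g02630D (102 genes, 0.99) and C09 from BnaC09g48290D to BnaC09g50760D (98 genes, 0.95). Window medians of drought against control stayed between -0.44 and 0.31. Below, a copy in such a window is said to lie in a low or a high stretch. Counts of copies and sums over a locus include such copies without naming them, and 43 of the 305 called copies named by the rule lay in one. No DNA was analysed here. A difference in genotype between the heat and the control plants, such as an exchange between A03 and C03 or another line, therefore cannot be told apart from heat in the change of any copy, above all in these stretches.

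Over all genes, 6344 were higher in heat and 4935 lower, 14.8% and 11.5% of the 42771 tested. The heat libraries lay all above the controls for 43.1% of the genes and all below for 29.4%. The median log2 change was 0.17, and scaling with TMM, a trimmed mean of log ratios, moved it by -0.15. With TMM scaling 44.9% of the called genes were higher, in place of 56.2%, so changes are best read relative to that median. A gene could pass the filter through 1 group alone: 2206 tested genes (5.16%) had no control library at 1 FPKM and 1400 no heat library, which favours a call. Among the 23336 genes with a mean of at least 5 FPKM over the 6 libraries, a limit chosen after the values had been seen, 15.7% were higher and 14.0% lower. Outside the low and high stretches, with genes of unknown position counted as outside, 14.4% of 39368 genes were higher and 10.8% lower. A log2 change of at least 2 was met by 1102 called genes upward and 1205 downward. Of the genes called higher, 73 were listed at 0 in all 3 control libraries, and of those called lower 66 were listed at 0 in all 3 heat libraries. The A subgenome had 2634 higher and 2768 lower of 20645 tested genes, and the C subgenome 3684 higher and 2154 lower of 22028. In the 305 called copies of 127 loci named by the rule below, all 3 heat libraries lay on 1 side of all 3 control libraries. Being chosen as called genes favours this, and it held for 72.5% of all tested genes.

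**Figure D2:**
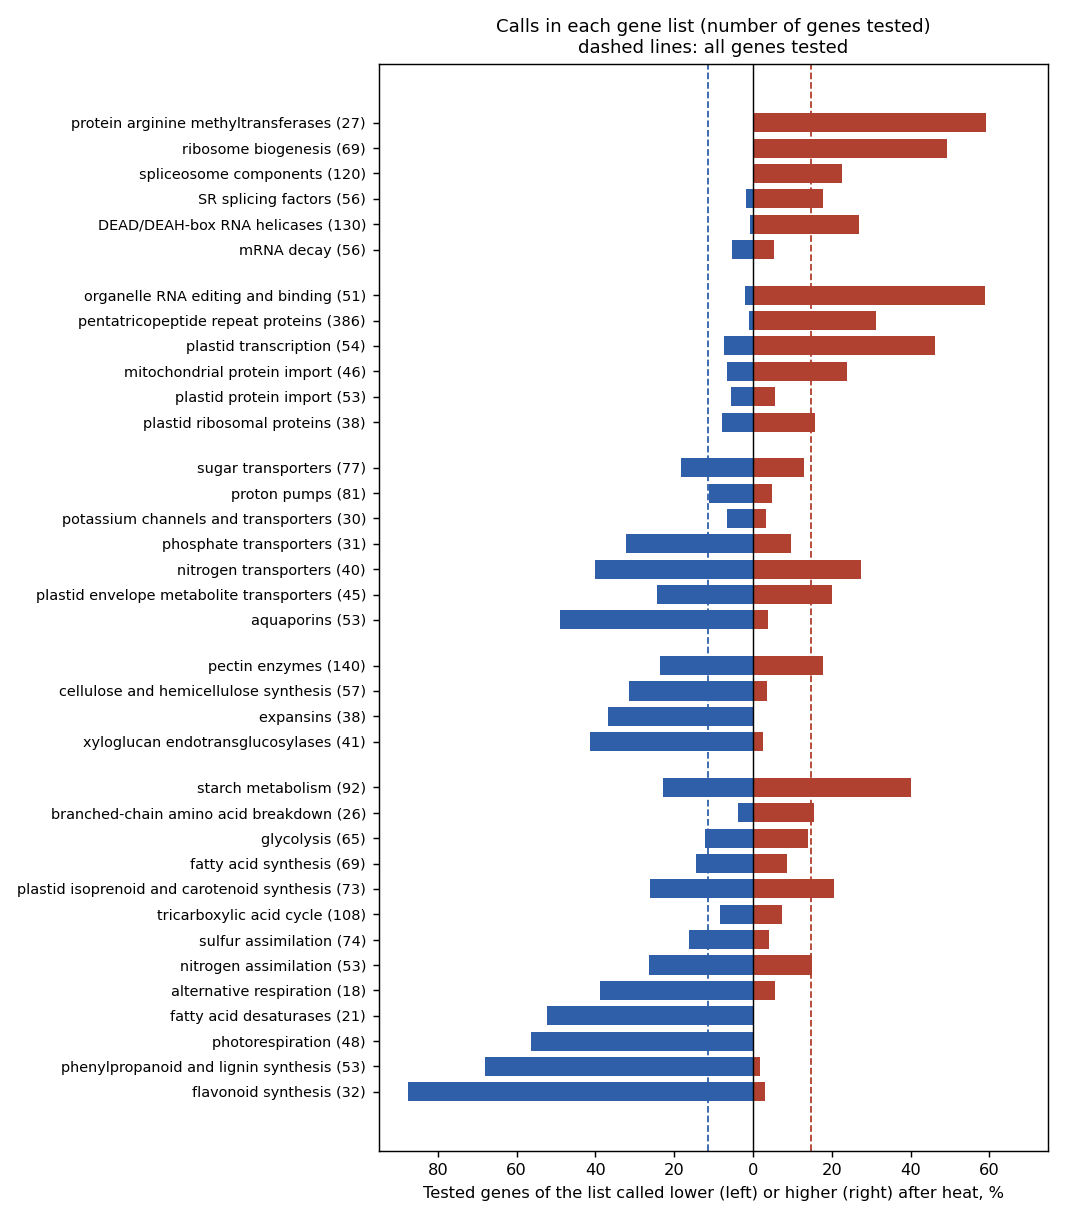
Percent of the tested members of each gene list that were called lower (blue, to the left) and higher (red, to the right) in heat, with dashed lines at the 11.5% and 14.8% of all tested genes. Protein arginine methyltransferases and organelle RNA editing factors stand farthest to the right, flavonoid and phenylpropanoid genes farthest to the left.

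Copies of 1 locus were set side by side at 12419 loci with at least 2 tested copies. All copies were higher at 654 loci (5.27%) and all lower at 549 (4.42%), an order that turned with TMM scaling (493 and 703) and with quantile normalisation (549 and 670). Some copies were higher and the rest not called at 2473 loci (19.9%), some lower and the rest not called at 1689 (13.6%), and no copy was called at 6670 (53.7%). Copies were called opposite ways at 384 loci (3.09%), and at 316 of these the sum of the copies was not called. The median range of the log2 change among copies of a locus was 0.73, and it was at least 1 at 36.4% of loci. Of the 384 loci, 186 (48.4%) had a called copy in a low or high stretch. A tested copy there was found at 2432 (19.6%) of the 12419. These shares are not alike, since the first counts called copies and the second tested copies. The stretches were also picked by these same log2 changes, which favours called copies in them.

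Among loci whose copies all rose, outside the heat-shock and clock genes, 12 were ranked by their least changed copy. CAT3, a catalase that breaks down hydrogen peroxide, had 6 of 6 copies higher, and its summed level went from 732 ± 1.83 to 8202 ± 21.9 FPKM. Its largest copy, BnaC07g15280D, stood at 376, 377 and 373 FPKM in the control libraries and 3749, 3749 and 3733 FPKM in the heat libraries, a log2 change of 3.31 ± 0.02 SE (adjusted p = 1.45e-15, limma). PCK1, a carboxykinase of gluconeogenesis, had both copies higher. BnaA01g00210D of PCK1 stood at 32.9, 33.0 and 30.9 FPKM in the control libraries and 345, 340.0 and 338 FPKM in the heat libraries, a log2 change of 3.36 ± 0.05 SE. The other copy, BnaC01g01140D, lay in a high stretch and rose by a log2 change of 4.32 ± 0.15, to a mean of 27.6 ± 1.49 FPKM. SNRK2.2, a kinase of abscisic acid signalling, rose in both copies, with log2 changes of 3.95 ± 0.17 and 3.55 ± 0.14. DYL1, a gene known from dormant buds, rose by 4.52 ± 0.20 and 4.13 ± 0.14.

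Several of these loci are known by their protein family alone. The wound-responsive family gene AT4G05070 stood at 0.961, 1.27 and 1.60 FPKM in the controls and 92.7, 81.0 and 83.6 FPKM in heat in BnaA09g19970D, and its second copy rose as well. All 3 copies of the glycosyl hydrolase AT3G62710 were higher, BnaC04g55020D in a high stretch and BnaA04g00410D in a low one, with log2 changes of 6.997 ± 0.12 and 4.98 ± 0.13. The pectin methylesterase inhibitor-like gene AT5G62360 rose by 3.93 ± 0.21 and 4.31 ± 0.14, and the major facilitator AT5G62730 by 3.65 ± 0.13 and 3.90 ± 0.07. Both copies also rose of AT4G32340, a tetratricopeptide repeat protein, and of AT2G30600, a BTB domain protein, with sums of 103 ± 1.64 and 124 ± 4.51 FPKM in heat.

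The 10 loci ranked the same way among those whose copies all fell began with AOC3. AOC3, an allene oxide cyclase of jasmonate synthesis, stood at 198, 192 and 191 FPKM in the controls and 7.51, 6.38 and 6.67 FPKM in heat in BnaC09g52550D, a log2 change of -4.64 ± 0.13 SE (adjusted p = 6.90e-11, limma). Its other copy fell by a log2 change of -5.09 ± 0.10. JMT, which methylates jasmonic acid, fell in both copies, to 0.201 ± 0.235 and 0.0683 ± 0.0686 FPKM from 19.2 ± 1.53 and 13.2 ± 0.882 FPKM. WSD1, a wax ester synthase, had log2 changes of -4.44 ± 0.08 and -4.57 ± 0.07. UGT84A1, a glucosyltransferase of hydroxycinnamic acids, had -3.93 ± 0.12 and -4.06 ± 0.12. The acyltransferase AT1G03940 had -4.31 ± 0.10 and -4.14 ± 0.09. TAT3, a tyrosine aminotransferase, fell by changes of -3.85 ± 0.15 and -4.15 ± 0.16, and BCB, a blue copper-binding protein, by changes of -3.92 ± 0.16 and -4.58 ± 0.12. All 3 copies of AT4G29930, a helix-loop-helix factor, fell, their sum from 148 ± 1.83 to 2.55 ± 0.593 FPKM. The methyltransferase AT3G44870 fell in both copies, with log2 changes of -3.76 ± 0.13 and -6.69 ± 0.12.

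**Figure D3:**
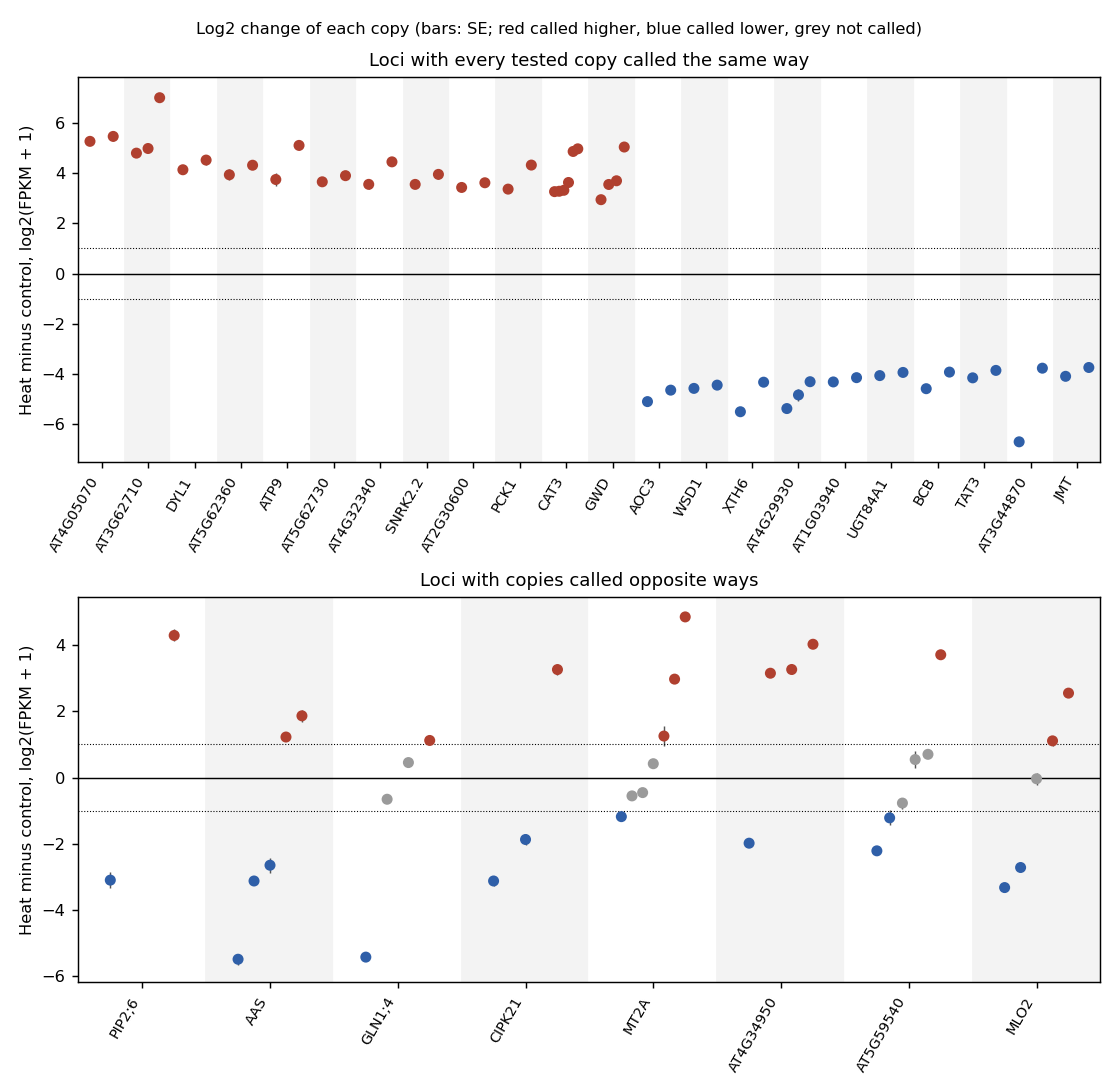
Log2 change in heat of every tested copy of the 22 loci whose copies all moved the same way and of the 8 loci whose copies were called opposite ways, with SE bars. Copies of CAT3 lie between 3.26 and 4.96, while the copies of PIP2;6 lie at -3.10 and 4.30.

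The 8 loci with the widest gap between copies called opposite ways were looked at copy by copy. PIP2;6, a plasma membrane aquaporin, had 2 tested copies. BnaA03g18300D, in the low stretch of A03, stood at 14.3, 13.2 and 10.5 FPKM in the control libraries and 0.803, 1.20 and 0 FPKM in the heat libraries. BnaC03g21800D stood at 1.91, 2.43 and 1.54 FPKM in the control libraries and 52.9, 61.1 and 56.5 FPKM in the heat libraries. The first was thus the main copy in control and the second in heat, with log2 changes of -3.10 ± 0.24 and 4.30 ± 0.18 SE (adjusted p = 4.67e-07 and 2.98e-09, limma). CIPK21, a calcium-regulated kinase, had copies on A10 and C09 that fell by log2 changes of -1.87 ± 0.18 and -3.13 ± 0.14, and a copy in a high stretch of C03 that rose by 3.27 ± 0.16. GLN1;4, a cytosolic glutamine synthetase, fell in BnaC02g06690D of a low stretch, which stood at 45.5, 43.1 and 44.0 FPKM in the controls and 0, 0.0744 and 0.0730 FPKM in heat. Its copy BnaC09g41340D rose from 12.8 ± 1.95 to 28.9 ± 3.17 FPKM.

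Of the other 5, MT2A, a metallothionein, changed most in BnaA05g29010D, which stood at 99.2, 93.8 and 99.0 FPKM in the controls and 2915, 2982 and 2656 FPKM in heat. Of its 7 tested copies 3 rose, BnaA10g27170D fell from 862 ± 27.9 to 379.7 ± 19.5 FPKM, and the sum of all copies, 7138 ± 103 to 9282 ± 419 FPKM, was not called. AAS, an aromatic aldehyde synthase, fell in 3 copies and rose in 2, and the sum of its copies fell by a log2 change of -2.47. MLO2, whose Arabidopsis counterpart is needed by powdery mildew, rose in 2 copies, 1 of them in a high stretch, and fell in 2: it fell in BnaA06g06970D from 60.6 ± 1.60 to 5.20 ± 1.05 FPKM and rose in BnaA08g25340D from 15.2 ± 0.743 to 94.2 ± 2.60 FPKM. The major facilitator AT4G34950 rose in 3 copies, the largest from 4.38 ± 0.270 to 86.9 ± 2.41 FPKM, and fell in BnaA09g08810D from 48.1 ± 2.11 to 11.4 ± 0.433 FPKM. The oxygenase AT5G59540 rose in BnaC03g11850D by 3.71 ± 0.11 and fell in BnaA03g09440D by a change of -2.22 ± 0.11, copies of a high and a low stretch. Another of its 6 tested copies, BnaC03g11900D of the same high stretch, fell by a change of -1.22 ± 0.23.

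**Figure D4:**
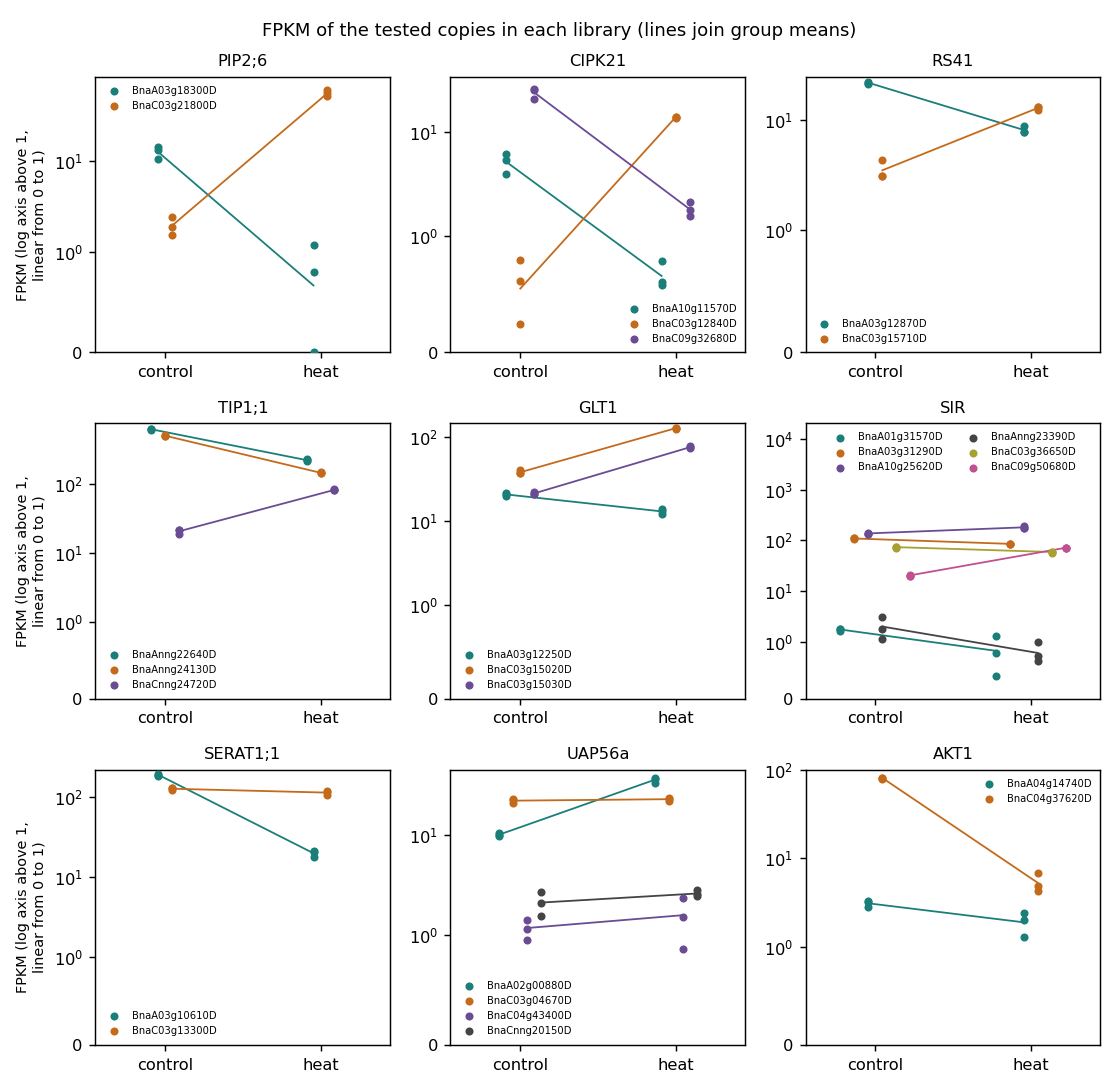
FPKM in each control and heat library for the tested copies of 9 loci whose copies differed, among them PIP2;6, RS41, GLT1, SERAT1;1 and AKT1. For PIP2;6, CIPK21, RS41, TIP1;1 and GLT1 the lines of the copies run in opposite directions, while for SERAT1;1, UAP56a, AKT1 and SIR the copy that changed most crosses or nears one that was not called. The y axis is logarithmic above 1 FPKM and linear below, and lines join group means.

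Few RNA processing genes were called lower. The shares called higher ran from near the 14.8% of all genes upward, except for mRNA decay at 5.36%. Spliceosome components had 27 of 120 tested copies (22.5%) higher and 0 lower (median log2 change 0.60), and SR splicing factors, which bind exons and guide splice site choice, had 10 of 56 (17.9%) higher and 1 lower (median 0.53). With TMM scaling 7 of the SR copies were higher, so their share lay near that of all genes. DEAD and DEAH-box RNA helicases had 35 of 130 (26.9%) higher and 1 lower (median 0.50). The median of all genes was 0.17. With TMM scaling these 3 medians were 0.45, 0.35 and 0.36, and that of all genes was 0.01. RS40 and SCL30A count in both the SR and the spliceosome list. The members lower in these lists, RS41 (BnaA03g12870D) and the helicase AT2G35920 (BnaA03g16420D), both lay in the low A03 stretch.

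Many loci of these lists had a single called copy. SR34a rose in BnaC08g21130D, which stood at 10.9, 11.5 and 10.4 FPKM in the controls and 39.3, 40.9 and 41.0 FPKM in heat, while its other 5 copies were not called. RS2Z33 rose in BnaC03g20680D by 1.29 ± 0.06 SE, and its A03 copy in the low stretch had -0.79 ± 0.07. RS41 stood at 21.2, 22.0 and 21.7 FPKM in the controls and 7.67, 8.84 and 7.70 FPKM in heat in BnaA03g12870D. In BnaC03g15710D, in a high stretch, RS41 stood at 4.29, 3.06 and 3.08 FPKM in the controls and 12.1, 12.9 and 13.1 FPKM in heat. The copies of RS41 thus moved apart, by log2 changes of -1.32 ± 0.08 and 1.63 ± 0.12. The U2 auxiliary factor gene AT1G60900, which helps to define the 3′ splice site, rose in BnaC01g28840D from 17.2 ± 0.890 to 49.9 ± 1.49 FPKM, and AT2G29210, a splicing factor with a PWI domain, in BnaC04g54780D of a high stretch from 7.55 ± 0.580 to 31.0 ± 1.32 FPKM. UAP56a, a helicase of splicing and mRNA export, rose in 1 of 4 copies, BnaA02g00880D, which stood at 10.1, 10.5 and 9.76 FPKM in the controls and 37.1, 37.5 and 33.6 FPKM in heat. The mitochondrial helicase AT5G39840 rose in BnaC04g31840D of a high stretch by 3.14 ± 0.09, while its A04 copy changed by 0.09 ± 0.16, which was not called. Both tested copies rose of the helicases PMH1, EMB25 and AT1G51380, with log2 changes of 1.17 to 2.501.

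Genes of ribosome assembly had 34 of 69 copies higher and 0 lower, with a median of 0.96 (0.81 with TMM scaling). NUC-L1, a nucleolin of the nucleolus, had 6 of 7 copies higher. Its main copy, BnaC08g03190D, stood at 32.6, 30.1 and 29.95 FPKM in the control libraries and 142, 136 and 137 FPKM in the heat libraries, a log2 change of 2.13 ± 0.06 SE (adjusted p = 8.70e-11, limma). NUC-L2 had 5 of 5 copies higher, with log2 changes of 1.04 to 1.60. Both copies of the TLD-domain gene AT5G39590, 1 of them in a high stretch, rose, from a sum of 3.38 ± 0.841 to 54.7 ± 2.66 FPKM.

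Protein arginine methyltransferases, which modify histones and RNA-binding proteins, had 16 of 27 copies higher and 0 lower, with a median of 1.21 (1.03 with TMM scaling). PRMT5, which acts on splicing proteins and on flowering and clock genes in Arabidopsis, rose in 4 of 4 copies by log2 changes of 1.21 to 2.30. PRMT1B rose in 4 of 4, from a sum of 9.79 ± 1.101 to 41.2 ± 1.88 FPKM. None of the 27 copies was placed in a low or high stretch. Genes of mRNA decay had 3 of 56 copies higher and 3 lower, below the shares of all genes in both directions, and a median of 0.22. The decapping gene DCP1 rose in BnaA09g48930D, of a high stretch, and in BnaAnng28130D, and the exonuclease gene XRN4 in 1 of 3 copies. CAF1B, a deadenylase that shortens poly(A) tails, fell in 2 of 6 copies, among them BnaA02g05510D from 31.6 ± 1.39 to 9.998 ± 0.861 FPKM, and LSM1A, of the ring that binds decaying mRNA, in 1 of 2.

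Nuclear genes for organelle RNA were also mostly called higher where they were called. Pentatricopeptide repeat proteins, which bind single organelle transcripts and steer their editing, cleavage and stability, had 121 of 386 copies higher and 4 lower. Of the 386, 134 had no control library at 1 FPKM and passed through the heat libraries alone, and they gave 76 of the 121 rises. Among the 85 copies with a mean of at least 5 FPKM over the 6 libraries, 20 (23.5%) were higher and 3 lower, against 15.7% and 14.0% of all genes at that level. AT1G73710, with 1 tested copy, stood at 6.57, 6.38 and 7.57 FPKM in the control libraries and 34.7, 35.8 and 34.5 FPKM in the heat libraries. PPR2 rose in BnaA05g30910D from 12.8 ± 0.855 to 43.4 ± 3.03 FPKM and was not called in its C05 copy. The fall of AT3G46610 (BnaA03g04850D), from 68.6 ± 1.37 to 11.7 ± 2.002 FPKM, was 1 of the 4 falls; the identity of that copy to its Arabidopsis match was 65.0%.

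Organelle RNA editing and binding factors had 30 of 51 copies higher and 1 lower, with a median of 1.24 (1.103 with TMM scaling). Of the rises, 4 came from copies that passed through the heat libraries alone. Among the 41 copies with a mean of at least 5 FPKM, 26 (63.4%) were higher and 1 lower. All tested copies of the editing factors MORF1 (4 copies), MORF3 (3), MORF6 (3) and MORF8 (6) were higher. MORF2 rose in 3 of 4, most in BnaC04g11080D, which stood at 13.4, 16.0 and 12.2 FPKM in the controls and 77.4, 73.5 and 81.0 FPKM in heat. CP29A, a chloroplast protein that binds and stabilises plastid transcripts, rose in 4 of 4 copies. Its copy BnaC08g24510D stood at 8.48, 6.57 and 6.69 FPKM in the control libraries and 106, 105 and 102 FPKM in the heat libraries, a log2 change of 3.69 ± 0.11 SE (adjusted p = 1.32e-10, limma). The related CP29B rose in 4 of 7 copies and fell in BnaA03g17080D of the low A03 stretch, from 45.6 ± 3.25 to 10.9 ± 1.07 FPKM.

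The plastid transcription list had 25 of 54 copies higher and 4 lower, with a median of 0.73 (0.55 with TMM scaling). The 4 that fell were the 4 copies of SIG5, a light-responsive sigma factor, with log2 changes of -2.21 to -1.40. RPOTp, the phage-type RNA polymerase of plastids, rose in 4 of 4 copies, and BnaC08g34230D stood at 5.94, 6.29 and 6.60 FPKM in the control libraries and 39.2, 38.5 and 36.0 FPKM in the heat libraries. Subunits that associate with the plastid-encoded polymerase also rose in every tested copy: PTAC10 (2), PTAC12 (2), FLN1 (3), FLN2 (2) and FSD3 (3), an iron superoxide dismutase. FSD2 rose in 2 of 3 copies, while its copy in the low A03 stretch had a log2 change of 0.20 ± 0.15.

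Import machinery and plastid ribosomes moved less. Plastid ribosomal proteins had 6 of 38 copies (15.8%) higher and 3 (7.89%) lower, with a median of 0.07 that became -0.12 with TMM scaling. The share higher was near the 14.8% of all genes, and with TMM scaling 3 copies were higher and 5 lower. Plastid protein import had 3 of 53 higher and 3 lower, with a median of 0.14 that became -0.02 with TMM scaling. RPL3P rose in 3 of 3 copies and PSRP3/2 in 2 of 2, while PRPL35 fell in BnaC08g34270D from 172 ± 8.46 to 66.9 ± 5.12 FPKM. TIC55, a Rieske protein of the inner envelope, fell in BnaA03g22780D by a change of -1.42 ± 0.06, TIC40 rose in BnaC09g41260D by 1.40 ± 0.08, and TIC110, the channel protein, rose in 1 of 6 copies. Mitochondrial protein import had 11 of 46 higher and 3 lower, 3 of the rises from copies that passed through the heat libraries alone. Among its 26 copies with a mean of at least 5 FPKM, 5 (19.2%) were higher and 1 lower, near the 15.7% higher of all genes at that level. TIM23-1, a channel of the inner membrane, rose in 3 of 4 copies, from a sum of 1.77 ± 0.0740 to 17.3 ± 3.77 FPKM. TOM40-1, the outer membrane channel, rose in 1 of 6. TIM8 split between BnaC03g16400D, up by 1.51 ± 0.14, and BnaA03g13520D of the low stretch, with -1.16 ± 0.14.

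Gene models whose best match is encoded in an organelle genome were examined after their values had been seen. Of 82 models that match the mitochondrial genome, 30 passed the filter, 23 of them with no control library at 1 FPKM, so that passing the filter already favoured a rise. The summed level of all 82, which no filter touched, was 16.1, 12.7 and 13.6 FPKM in the control libraries and 306, 309.6 and 263 FPKM in the heat libraries, without overlap. Much of it came from ATP9, a subunit of the mitochondrial ATP synthase. Its model BnaCnng12660D stood at 1.53, 3.33 and 3.05 FPKM in the control libraries and 128, 121 and 112 FPKM in the heat libraries, a log2 change of 5.10 ± 0.20 SE (adjusted p = 1.69e-09, limma). The model BnaCnng12820D of NAD1A, a subunit of complex I, had a mean of 0.770 ± 0.448 FPKM in control and 27.8 ± 4.23 FPKM in heat. BnaCnng12780D of COX2, a subunit of cytochrome oxidase, had 0.940 ± 0.417 and 17.9 ± 3.82 FPKM. Of 211 models that match the plastid genome, 8 passed, 0 were called, and the sums were 33.4 to 40.4 FPKM in control and 34.3 to 44.3 FPKM in heat. The libraries were made from polyadenylated RNA, and whether polyadenylation, amount or carry-over of organelle RNA differed was not tested.

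Transport lists differed in how often their copies were called lower, against 11.5% of all genes. Aquaporins, the water channels of membranes, had 26 of 53 copies lower and 2 higher, with a median of -0.96 (-1.15 with TMM scaling), and their summed level went from 15221 ± 96.8 to 7197 ± 72.4 FPKM. Outside the low and high stretches, 19 of 45 were lower and 2 higher. PIP2;1, a channel of the plasma membrane, fell in 3 of 3 copies, and BnaA09g33720D stood at 1307, 1308 and 1309 FPKM in the control libraries and 114, 115 and 101 FPKM in the heat libraries. The log2 change of that copy was -3.56 ± 0.04 SE (adjusted p = 1.49e-13, limma). PIP1;4 had 7 of 17 copies lower, PIP1;1 2 of 2 and the tonoplast channel TIP2;1 3 of 5. PIP2;2 fell in 3 of 7 copies, 2 of them in the low A03 stretch and 1, BnaC03g72010D, in a high stretch of C03, from 366 ± 7.001 to 47.5 ± 3.74 FPKM. The copies of TIP1;1 that rose and fell differed in level: BnaAnng22640D fell from 627 ± 13.7 to 224 ± 4.22 FPKM, while BnaCnng24720D rose from 20.8 ± 1.54 to 82.8 ± 1.56 FPKM.

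Nitrogen transporters were called in both directions, with 16 of 40 copies lower and 11 higher. Their median of -0.44 was 0.02 with no filter on low values. Of the rises, 5 came from copies that passed through the heat libraries alone, and 2 falls from copies that passed through the controls alone. Among the 20 copies with a mean of at least 5 FPKM, 4 were higher and 10 lower, so falls outnumbered rises more clearly there. AMT1;2, an ammonium transporter, stood at 125, 133 and 134 FPKM in the controls and 3.11, 3.06 and 3.15 FPKM in heat in BnaA09g00320D, a log2 change of -5.002 ± 0.06 SE, and its other copy had -2.999 ± 0.05. The vacuolar nitrate transporter NRT2.7 fell in both copies, 1 of them in a low stretch, from a sum of 210.4 ± 3.38 to 28.4 ± 1.81 FPKM, and the vacuolar nitrate exchanger CLCA in 4 of 4. NRT1.1, the nitrate transporter and sensor, split: BnaA09g47380D, in a high stretch, stood at 12.7, 12.6 and 12.2 FPKM in the controls and 58.3, 60.5 and 54.8 FPKM in heat. BnaA08g24900D fell from 48.5 ± 3.14 to 22.8 ± 1.71 FPKM, and 5 of its 7 copies were higher.

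Phosphate transporters had 10 of 31 copies lower and 3 higher (median -0.43). The plastid carriers PHT2;1 and PHT4;4 fell in 4 of 4 copies each, PHT2;1 from a sum of 266 ± 7.02 to 92.4 ± 0.718 FPKM, and PHT1;4, of the plasma membrane, rose in 2 of 5. Potassium channels and transporters had 2 of 30 lower and 1 higher (median -0.38, or 0.02 with no filter). The inward channel AKT1 stood at 81.0, 81.7 and 79.6 FPKM in the controls and 4.84, 6.81 and 4.20 FPKM in heat in BnaC04g37620D, while its A04 copy was not called. GORK, the outward channel, rose in 1 of 3, a copy of 56.2% identity. Proton pumps had 9 of 81 copies lower and 4 higher (median -0.14). The shares lower of these last 2 lists, 6.67% and 11.1%, were not above that of all genes. VHA-E1, a subunit of the vacuolar ATPase, fell in 4 of 6 copies, the plasma membrane pump AHA1 in 1 of 4, and the pyrophosphatase AVP1 rose in 1 of 7, in a high stretch, and fell in 1.

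Sugar transporters had 10 of 77 copies (13.0%) higher and 14 (18.2%) lower, against 14.8% and 11.5% of all genes. Their median of -0.06 was -0.24 with TMM scaling. SWEET15 and SWEET17, sugar facilitators of the plasma membrane and the vacuole, fell in 3 of 3 copies each. SWEET2 fell in 2 of 4, and BnaC05g38830D went from 96.2 ± 4.25 to 15.5 ± 1.81 FPKM. PGLCT, the glucose exporter of plastids, rose in 2 of 4, and BnaC09g41660D stood at 3.48, 3.97 and 3.90 FPKM in the controls and 40.1, 34.8 and 35.8 FPKM in heat. Carriers of the plastid envelope had 9 of 45 higher and 11 lower (median -0.47). NTT2, which imports ATP into plastids, rose in 4 of 4 copies, 2 of them in high stretches. Its copy BnaC08g16710D, 1 of those, went from 7.26 ± 0.383 to 114 ± 2.09 FPKM and BnaA08g23810D, outside any stretch, from 4.30 ± 0.263 to 49.0 ± 0.0775 FPKM. DIT1, which exchanges dicarboxylates for ammonia reassimilation, fell in 2 of 2 copies from a sum of 394 ± 3.63 to 162 ± 5.34 FPKM, and GPT2, a glucose phosphate carrier, in 2 of 3.

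Each of the 4 cell wall lists had more copies lower than higher, by the smallest margin among pectin enzymes, whose summed level rose. Xyloglucan endotransglucosylases, which cut and rejoin the hemicellulose that ties cellulose fibrils, had 17 of 41 copies lower and 1 higher, 5 of the falls from copies that passed the filter through the controls alone. XTH6 fell in both copies, and BnaCnng13310D stood at 283, 292 and 304 FPKM in the control libraries and 4.33, 6.23 and 6.20 FPKM in the heat libraries, a log2 change of -5.49 ± 0.10 SE (adjusted p = 4.02e-12, limma). XTH22, known in Arabidopsis as a touch-induced gene, fell in 3 of 3 copies, and BnaA10g11500D went from 386 ± 6.92 to 30.3 ± 3.39 FPKM. XTH32 rose in BnaC04g08400D by 1.68 ± 0.22. None of the 41 copies was placed in a low or high stretch, but the position of some, such as BnaCnng13310D, is unknown. Expansins, which loosen walls, had 14 of 38 lower and 0 higher, 5 of the falls likewise from copies that passed through the controls alone. Among the falls were 3 of 3 copies of EXPA1, 4 of 5 of EXLA1 and 1 of 3 of EXPA6.

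Cellulose and hemicellulose synthesis had 18 of 57 copies lower and 2 higher, with a median of -0.60. The cellulose synthase CESA5, with 1 tested copy, stood at 26.1, 25.0 and 25.1 FPKM in the control libraries and 5.68, 5.96 and 5.55 FPKM in the heat libraries. CSLC4, which makes the xyloglucan backbone, fell in 4 of 4 copies by log2 changes of -1.96 to -1.09. CSLG3, with 1 tested copy, fell from 70.4 ± 2.65 to 17.2 ± 1.76 FPKM. The copies higher, both of which passed the filter through the heat libraries alone, were 2 of 5 of CSLE1, of which the other 3 were lower. Pectin enzymes, a list that also holds inhibitors such as PGIP1, had 25 of 140 copies (17.9%) higher and 33 (23.6%) lower. The median was -0.06, or 0.01 without heat replicate 1. Of these copies, 9 rises came from copies that passed through the heat libraries alone, and 9 falls from copies that passed through the controls alone. The summed level of the list went the other way from the counts, from 1473 ± 18.8 to 1987 ± 12.8 FPKM. Among the 66 copies with a mean of at least 5 FPKM, 13 (19.7%) were higher and 20 (30.3%) lower, against 15.7% and 14.0% of all genes at that level. AT3G49220, a pectin methylesterase, fell in 4 of 4 copies from a sum of 179 ± 5.80 to 40.4 ± 1.14 FPKM. AT5G62350, an inhibitor-like gene, rose in BnaA02g33370D, which stood at 138, 154 and 152 FPKM in the controls and 926, 927 and 929 FPKM in heat. PGIP1, which inhibits fungal polygalacturonases, fell in 3 of 7 copies and rose in 2, one of which, BnaC09g48930D, lay in a high stretch.

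Starch genes moved in both directions. The list had 37 of 92 copies higher and 21 lower, with a median of 0.62 (0.46 with TMM scaling). Among enzymes of starch breakdown, most copies of the dikinases, phosphorylases and disproportionating enzymes rose. GWD, which phosphorylates starch and is also 1 of the 12 loci above, rose in 4 of 4 copies, and BnaC08g14540D stood at 8.19, 8.25 and 8.50 FPKM in the control libraries and 116, 122 and 119.8 FPKM in the heat libraries. BnaA09g47750D of GWD, in a high stretch, rose by 5.03 ± 0.09 SE. PHS2, a cytosolic phosphorylase, rose in 2 of 2 copies, and BnaA06g17710D stood at 39.7, 38.4 and 42.0 FPKM in the control libraries and 239.9, 252 and 240.5 FPKM in the heat libraries (adjusted p = 9.65e-12, limma). The disproportionating enzymes DPE1 and DPE2 rose in 2 of 2 copies each, PWD, a second dikinase, in 3 of 4, SEX4, a glucan phosphatase, in 3 of 4, and ISA3, a debranching enzyme, in 3 of 4. Enzymes of synthesis went both ways: APL3 and SBE2.2 rose in 2 of 2 copies each and APS1 in 3 of 4, while the granule-bound synthase GBSS1 fell in 3 of 3 and APL1 in 3 of 4. Several beta-amylases were lower: BAM3 in 4 of 4 copies, BAM9 in 3 of 3, BAM6 in 2 of 2 and BAM1 in 2 of 3, while BAM4 rose in 2 of 5. BAM9 fell in BnaA03g07240D, which lay just before the low A03 stretch and stood at 79.9, 73.6 and 76.0 FPKM in the controls and 5.97, 7.86 and 7.07 FPKM in heat.

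Photorespiration was among the lists with the largest share of falls, with 27 of 48 copies lower and 0 higher and a median of -1.16 (-1.35 with TMM scaling). Its summed level went from 20179 ± 140.4 to 8656 ± 83.1 FPKM. GGT1, the glutamate:glyoxylate aminotransferase of peroxisomes, fell in 5 of 7 copies, and BnaA09g31220D stood at 754, 742 and 756 FPKM in the control libraries and 209.9, 203 and 215 FPKM in the heat libraries, a log2 change of -1.84 ± 0.03 SE (adjusted p = 1.12e-12, limma). AGT1, the second aminotransferase, fell in BnaA03g38340D from 1089 ± 6.11 to 412 ± 5.29 FPKM, while its other 3 copies, with log2 changes of -0.98 ± 0.03, -0.96 ± 0.02 and -0.82 ± 0.03, missed the threshold. All tested copies were lower of the peroxisomal reductase HPR1 (4) and of the glycine decarboxylase subunits GLDT (4) and GLDP1 (2). The summed mesophyll markers, given above, were lower in heat too, and their part in this was not tested.

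Glycolysis and the tricarboxylic acid cycle held near the share of calls of all genes or below it. Glycolysis had 9 of 65 copies higher and 8 lower, with a median of 0.06 that was -0.13 with TMM scaling, and the cycle 8 of 108 higher and 9 lower, with a median of -0.28. GAPC2, a cytosolic glyceraldehyde phosphate dehydrogenase, rose in BnaA05g33200D, which stood at 60.5, 55.0 and 53.9 FPKM in the controls and 236, 226 and 237 FPKM in heat. PPC2, a phosphoenolpyruvate carboxylase, rose in 2 of 4 copies. NP-GAPDH, which bypasses a phosphorylating step, fell in 2 of 4, among them BnaC04g36640D from 299 ± 3.50 to 106 ± 2.04 FPKM. The aconitase ACO1 rose in BnaC03g62580D from 10.1 ± 0.505 to 49.0 ± 1.63 FPKM and in 1 more of 4 copies. The mitochondrial malate dehydrogenase mMDH1 fell in 3 of 6, and PDH-E1B, a subunit of pyruvate dehydrogenase, in 1 of 6, a copy of the low A03 stretch. Alternative respiration had 7 of 18 copies lower and 1 higher (median -0.61). The alternative oxidase AOX1D fell in 2 of 2 copies, and BnaCnng60000D stood at 69.7, 64.0 and 67.4 FPKM in the controls and 6.76, 6.31 and 5.46 FPKM in heat. The external dehydrogenase NDB2 fell in 1 of 2 copies and the internal NDA1 in 3 of 4, while NDA2 rose in 1 of 2.

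Nitrogen assimilation had 14 of 53 copies (26.4%) lower and 8 (15.1%) higher, against 11.5% and 14.8% of all genes, with a median of -0.32. GS2, the plastid glutamine synthetase, fell in 2 of 4 copies. BnaA08g29950D of GS2 stood at 294, 301 and 294 FPKM in the controls and 125, 132 and 124 FPKM in heat, and BnaA04g07450D, in a low stretch, fell by a log2 change of -1.59 ± 0.03. GLT1, the NADH-dependent glutamate synthase, rose in both C03 copies of a high stretch, BnaC03g15020D from 37.7 ± 1.82 to 126 ± 1.76 FPKM. Its A03 copy BnaA03g12250D, in the low stretch, had a log2 change of -0.63 ± 0.10 and was not called. The cytosolic synthetase GLN1;3 rose in 4 of 6 copies.

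Sulfur assimilation had 12 of 74 copies (16.2%) lower and 3 (4.05%) higher, against 11.5% and 14.8% of all genes (median -0.31). Outside the stretches 11 of 67 were lower and 1 higher, where 10.8% of all genes were lower and 14.4% higher. ATPS1, the ATP sulfurylase that activates sulfate, fell in 2 of 3 copies, and BnaA05g16830D stood at 861, 869.9 and 860.5 FPKM in the control libraries and 228, 242 and 241 FPKM in the heat libraries. SERAT1;1, a serine acetyltransferase, showed the split of A03 and C03: BnaA03g10610D, in the low stretch, fell from 192 ± 6.14 to 19.9 ± 1.87 FPKM, while BnaC03g13300D, in a high one, at 128 ± 4.81 to 115 ± 5.92 FPKM, was not called. The sulfite reductase gene SIR rose in BnaC09g50680D of a high stretch, from 20.6 ± 0.395 to 71.7 ± 0.228 FPKM, 1 of 6 copies. Breakdown of branched-chain amino acids had 4 of 26 (15.4%) higher and 1 (3.85%) lower (median 0.40). The share higher was near the 14.8% of all genes, and with TMM scaling 2 copies were higher. BCE1A1 and BCE1B1, subunits of the branched-chain dehydrogenase, were higher in 1 copy each, and the transaminase BCAT2 was lower in 1 of 2.

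Fatty acid desaturases had 11 of 21 copies lower and 0 higher, with a median of -1.05 (-1.09 with TMM scaling). FAD7, a plastid enzyme that makes trienoic fatty acids, fell in 4 of 4 copies. BnaC05g42010D of FAD7 stood at 142, 149 and 143 FPKM in the control libraries and 19.0, 18.0 and 18.9 FPKM in the heat libraries, and BnaC03g37090D of FAD7 stood at 95.2, 95.6 and 95.6 FPKM in the control libraries and 10.7, 10.3 and 8.89 FPKM in the heat libraries. Their log2 changes were -2.89 ± 0.07 and -3.14 ± 0.07 SE (adjusted p = 2.30e-11 and 1.49e-11, limma). Both copies of FAD4 and of FAD8 fell as well, 2 of 4 of FAD6 and 1 of 5 of FAD3. The 2 copies of FAD2, the oleate desaturase of the endoplasmic reticulum, had log2 changes of 0.59 to 0.85 and were not called. Fatty acid synthesis had 6 of 69 (8.70%) higher and 10 (14.5%) lower, against 14.8% and 11.5% of all genes. Its median of -0.02 was 0.02 with no filter. FATB, a thioesterase that releases saturated fatty acids, fell in 4 of 6 copies from a locus sum of 99.2 ± 3.25 to 43.4 ± 0.852 FPKM, and SSI2, which desaturates stearate, in 2 of 4, one in the low A03 stretch. KAS1, a condensing enzyme, rose in 1 of 7.

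Plastid isoprenoid and carotenoid synthesis had 15 of 73 copies higher and 19 lower (median -0.13). Of the rises, 4 came from copies that passed through the heat libraries alone, and 1 fall from a copy that passed through the controls alone. Among the 58 copies with a mean of at least 5 FPKM, 10 (17.2%) were higher and 17 (29.3%) lower. Of all genes at that level 15.7% were higher and 14.0% lower, so the share higher was near that of all genes. Of 20 loci with a tested copy, 9 had a copy higher and 9 a copy lower. The list also counts cleavage genes such as CCD4. Several genes on the way from the making of phytoene to the xanthophylls were lower. PSY, the phytoene synthase, fell in 5 of 6 copies, 1 of them in a low stretch, and BnaC09g40730D stood at 102, 103 and 100.1 FPKM in the control libraries and 27.2, 24.5 and 28.0 FPKM in the heat libraries. LCYB, the lycopene cyclase, fell in 2 of 2 copies, BCH1, a carotene hydroxylase, in 4 of 4, and CYP97A3, another, in 3 of 3, while LCYE, the cyclase of the lutein branch, rose in 2 of 9 and fell in 1. Of the cleavage genes, CCD1 rose in 5 of 7 copies and fell in 1. CCD4, which breaks down leaf carotenoids, rose in BnaC01g11550D of a high stretch, which stood at 214, 216 and 215 FPKM in the controls and 1041, 1024 and 1060.0 FPKM in heat, while its other tested copy, BnaA01g09900D, had a log2 change of 0.26 and was not called.

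The 2 lists of phenolic synthesis had the largest shares of falls. Phenylpropanoid and lignin synthesis had 36 of 53 copies lower and 1 higher, with a median of -1.78 (-1.96 with TMM scaling). PAL1, the ammonia lyase that opens the pathway, fell in 4 of 4 copies, PAL2 in 6 of 6 and PAL4 in 2 of 2. BnaA04g21240D of PAL1 stood at 75.9, 82.0 and 78.2 FPKM in the control libraries and 3.03, 3.52 and 3.26 FPKM in the heat libraries, a log2 change of -4.22 ± 0.08 SE (adjusted p = 4.65e-12, limma). C4H, the hydroxylase of the second step, fell in 6 of 9 copies. BnaA05g11950D of C4H went from 81.0 ± 2.97 to 7.63 ± 0.3002 FPKM, and BnaA03g14010D, in the low A03 stretch, from 38.9 ± 2.81 to 3.08 ± 0.211 FPKM. All 4 copies of CCoAOMT1, which methylates lignin precursors, and both copies of 4CL1 fell. C3H was the exception, with BnaC04g47480D higher, from 6.98 ± 1.09 to 21.6 ± 0.273 FPKM, and BnaA03g19280D, in the low stretch, lower.

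Flavonoid synthesis had 28 of 32 copies lower and 1 higher. Of these 28, 14 had no heat library at 1 FPKM and passed through the controls alone, and among the 20 copies with a mean of at least 5 FPKM 18 (90.0%) were lower, against 14.0% of all genes at that level. With TMM scaling 29 were lower and 0 higher. TT4, the chalcone synthase, fell in 5 of 6 copies. BnaA10g19670D of TT4 stood at 96.0, 85.1 and 91.1 FPKM in the control libraries and 1.43, 1.01 and 1.84 FPKM in the heat libraries, while BnaC02g37270D, at 11.7 ± 0.694 to 9.37 ± 2.78 FPKM, overlapped between groups and was not called. The largest copy in control, BnaC02g05070D, lay in a low stretch. FLS1, which makes flavonols, fell in 4 of 5 copies, and BnaC09g47360D went from 89.7 ± 2.49 to 4.44 ± 1.14 FPKM; BnaCnng61390D, a copy of 63.1% identity, stood at 42.4 ± 0.578 to 51.2 ± 2.23 FPKM and was not called. All tested copies were lower of TT5 (5), F3H (3), DFR (2) and of the anthocyanin glycosyltransferases UGT75C1 (2) and UGT79B1 (2). The copy called higher was of MYB12, a regulator of flavonol genes, with a log2 change of 1.11, a call that was lost with TMM scaling; this copy lay in the low A03 stretch. Outside the low and high stretches, 26 of 29 copies were lower and 0 higher.

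**Figure D5:**
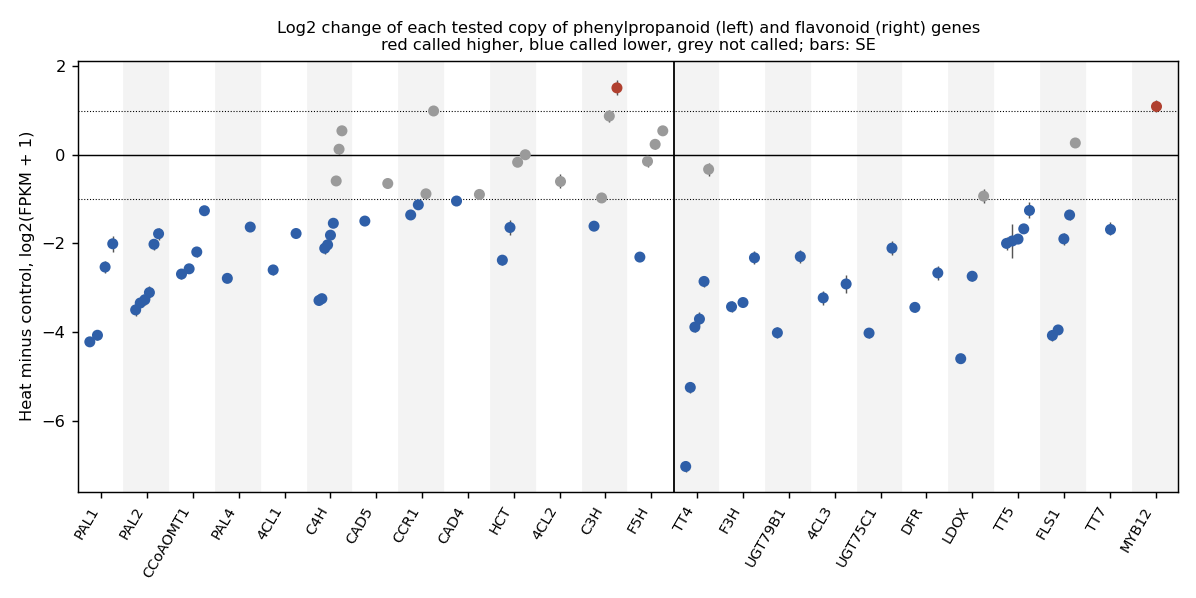
Log2 change in heat of each tested copy of 13 phenylpropanoid (left) and 11 flavonoid genes (right), ordered by the median of their copies, with SE bars and colour by call. Most copies lie below 0, down to -7.04 for a copy of TT4, and the copies called higher belong to C3H and MYB12, the latter not with TMM scaling.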

How the data were processed

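Each library measured polyadenylated leaf RNA. The authors deposited 1 value per gene model and library. Reads were aligned with HISAT2, per the submitters' processing notes. Not given in the sources used here are its version, the genome build and annotation, the counting tool, the use of strand and how multi-mapped reads were shared. The deposited values were taken as FPKM from the values themselves: multiplied by coding length they were whole multiples of 1 step per library (tolerance 0.01) for 88024 of 88392 models with a protein length. Percent identity to the best Arabidopsis protein is the authors' deposited column. The columns carry names that fit titles of both species apart from a prefix, and were taken as Brassica napus because the table holds its gene models and by the code in its file name.

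Log2(FPKM + 1) was fitted with limma 3.58.1 in R 4.3.3 (mean-variance trend, robust moderation, Benjamini-Hochberg adjustment over 42771 genes), with the 9 Brassica napus leaf libraries of 3 groups sharing 1 estimate of the spread. A gene was tested when 3 or more of the 6 libraries reached 1 FPKM. Tables and figures used Matplotlib 3.10.9, pandas 2.3.3 and NumPy 2.4.6 under Python 3.11.15. The members and the 36 gene lists were chosen with earlier results of these data known. The plastid ribosomal list was trimmed on annotation alone.

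Named loci were the 12 higher and 10 lower with the largest change in their least changed copy (all copies called the same way, a summed mean of at least 10 FPKM, outside heat-shock and clock genes), the 8 with the largest gap between copies called opposite ways (each copy at least 10 FPKM and 70% identity), and in each list the called loci with the smallest adjusted p. Other loci and the mitochondrial and plastid matches were named after their values had been seen. The alternatives were other scaling (TMM factors by an own function, quantile normalisation), pseudocount, filters, moderation, a replicate block, the 6 libraries alone, summed copies, no fold threshold, voom on recovered reads and each library left out; leaving out the chromosome stretches or genes with a mean under 5 FPKM was added after seeing the data. Deviations of same-numbered control and heat libraries correlated at 0.013, -0.004 and -0.0177, so no deviation shared by number was seen. Whether same-numbered libraries were handled together is not given by the labels and cannot be told from these values. The fit was also run on simulated reads for heat against control (38059 genes), drawn with a fixed dispersion of 0.02. Known folds were given to 200 genes, all with a control mean of at least 5 FPKM. Of these the fit called 50.0% of 2-fold, 97.1% of 3-fold and 100% of 4-fold rises. It called 27.3%, 97.0% and 100% of falls of the same sizes, and 2 of 37859 unchanged genes. Recovery of changes in genes of lower level was not simulated. Members of 2 lists, phenylpropanoid and lignin synthesis and potassium channels and transporters, that are not reported here by name stay in the counts.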

Additional observations from a re-analysis of the deposited data

How the results depend on the processing

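The replicate block gave 6343 higher and 4934 lower genes, against 6344 and 4935 without it, and changed no call of a named copy. Leaving out 1 library gave 6356 to 6436 higher and 4938 to 4998 lower. TMM scaling moved the share of higher calls to 44.9%, with 4838 higher and 5931 lower. With no fold threshold 17658 genes were higher and 11930 lower, voom on recovered reads gave 7479 lower, a mean of at least 5 FPKM over the 6 libraries gave 3664 higher and 3256 lower, and summing the copies of a locus gave 2337 higher and 1671 lower. Loci with all copies higher numbered 1009 with a pseudocount of 0.1 and 2572 with no fold threshold. Loci with all copies lower numbered 340 with no filter, 1611 with no fold threshold and 955 with voom. Loci with opposite copies numbered 626 with a pseudocount of 0.1, 230 with a filter of 5 FPKM, 2394 with no fold threshold, 638 with voom and 231 without the chromosome stretches; the cause was not tested beyond the genes each setting adds or leaves out. Of 305 called named copies, 13 lost their call with TMM scaling, 4 with quantile normalisation, 5 with voom, 1 with a pseudocount of 0.1 and 67 when copies were summed. Summing reversed 7, because the locus sum moved against the copy: AAS (BnaA07g00240D and BnaC07g00580D, -2.47), TIP1;1 (BnaCnng24720D, -1.35), PIP2;6 (BnaA03g18300D, 1.91), AT4G34950 (BnaA09g08810D, 1.60) and PGIP1 (BnaA10g24090D and BnaC09g48930D, -1.44). Depth limits genes near the minimum of 1 FPKM most, where few reads stand behind a value.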
